A study of Mus musculus with 11 samples.

Results

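The genes described here encode proteins that coat lipid droplets, let them grow and fuse, or release fatty acids from them: the perilipins Plin2, Plin3, Plin4 and Plin5, the CIDE proteins Cidea, Cideb and Cidec, the droplet-forming protein Fitm2, and adipose triglyceride lipase (ATGL, gene Pnpla2) with its inhibitor G0s2. They were taken by name, and all 10 were found among the 36788 gene identifiers of the liver RNA-seq table. RNA was sequenced from livers of wild-type C57BL/6 female mice older than 12 weeks, which had all been ovariectomized (OVX) and put on a high-fat diet (HFD). One group received daily injections of follicle-stimulating hormone (FSH, 5 libraries, numbered 1, 2, 3, 4 and 6 in the labels) and the other received saline (6 libraries, numbered 1 to 6, titled OVX), so that ovariectomy and the diet are common to both and no intact or chow-fed liver is among the samples. By the labels, the liver had been digested with papain before extraction. The libraries held 10801891 to 19909327 reads counted on genes. Levels are given as CPM, the reads of a gene scaled to a total of 1000000 for its library. The labels do not say that each library came from its own mouse, so the p-values below measure the spread between these libraries, which may in part be technical.

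Liver cells store triglyceride in lipid droplets, each a core of neutral lipid under a phospholipid monolayer that carries a protein coat. Perilipins make up much of that coat and govern which lipases reach the core, while CIDE proteins move lipid from small droplets to larger ones. ATGL takes the first fatty acid off triglyceride, G0s2 binds ATGL and blocks it, and Abhd5 (also called CGI-58) activates it.

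Plin4 and Plin5 are neighbors on mouse chromosome 17 and are read from the same strand, and their RNA moved together in these livers, whereas Plin2, on chromosome 4, behaved differently. The sequences just upstream of these 3 genes are therefore shown first. They were read from the RefSeq promoter table of GRCm38.p6, on the minus strand, 5′ to 3′, and end directly before the annotated gene. The lines hold chr17:56109804-56110032 for Plin4, chr17:56117597-56117798 for Plin5 and chr4:86670061-86670309 for Plin2, and capitals mark the 6 letters AGGTCA, the half-site bound by many nuclear receptors, or the same letters on the other strand (TGACCT).
Plin4: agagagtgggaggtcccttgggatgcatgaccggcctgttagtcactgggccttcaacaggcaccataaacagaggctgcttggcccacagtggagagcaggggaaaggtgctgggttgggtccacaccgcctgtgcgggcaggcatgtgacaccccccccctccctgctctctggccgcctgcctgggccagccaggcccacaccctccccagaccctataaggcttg
Plin5: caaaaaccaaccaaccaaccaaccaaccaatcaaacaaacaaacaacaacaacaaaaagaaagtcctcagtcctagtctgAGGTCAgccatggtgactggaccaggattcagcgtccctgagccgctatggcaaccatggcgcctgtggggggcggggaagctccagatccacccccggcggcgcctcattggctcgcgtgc
Plin2: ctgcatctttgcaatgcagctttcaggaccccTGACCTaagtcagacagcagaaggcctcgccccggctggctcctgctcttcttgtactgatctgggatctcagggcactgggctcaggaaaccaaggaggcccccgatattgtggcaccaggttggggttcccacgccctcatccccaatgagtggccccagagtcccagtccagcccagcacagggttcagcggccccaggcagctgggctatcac
Plin5 holds the half-site 170 bases before its first start site, and Plin2 holds it on the other strand at position -218, while the window of Plin4 has no match. Positions are counted from the RefSeq start sites. Those lie inside the annotated genes, so the printed lines end before them and a count from a line's end gives a smaller number. RefSeq lists a second start site of Plin5 further inside the gene, whose window holds the half-site 13 bases after the start. Both strands of 32851 mouse promoter windows, each from 250 bases before to 50 bases after a start site, were searched for the same letters, and 16.3% of them hold the half-site, so that a match is common. The direct repeat AGGTCANAGGTCA, which contains the half-site, was present in 0.0396% of all windows and in none of the windows of the 9 members searched (the window of Cidea was not used here). The letters AGAACA, a half-site of the glucocorticoid receptor (19.0% of all windows), occur only in the window of Cideb among the members. The E-box CACGTG (7.15% of all windows) occurs only in that of Plin2, beginning 4 bases before the start. The cyclic AMP response element TGACGTCA (1.79% of all windows) is absent from the members' windows. A match describes the letters of a window only.

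In FSH livers, Plin4 and Plin5 RNA fell, G0s2 RNA rose, and none of the other 6 members that could be tested passed the threshold. This was tested with limma on log2(CPM + 0.5) over the 12733 genes whose mean reached 0.5 CPM, and a gene was called at a Benjamini-Hochberg adjusted p under 0.05. Fold changes stay on this log2 scale, where the added 0.5 CPM makes the differences of low genes smaller. Of the 10 members, 9 passed the filter on low values and 1, Cidea, did not. Of the 9, 1 was higher and 2 were lower, where 6.19% and 4.41% of all tested genes were called higher and lower, 10.6% in both directions together. Plin4 and Plin5 also passed the study's second threshold, an absolute log2 fold change over 1, as did 1.83% of all tested genes. The median log2 fold change was 0.17 over the 9 members and 0.02 over all tested genes. In whole liver, fewer cells of a type and less RNA per cell cannot be told apart.

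**Figure D1:**
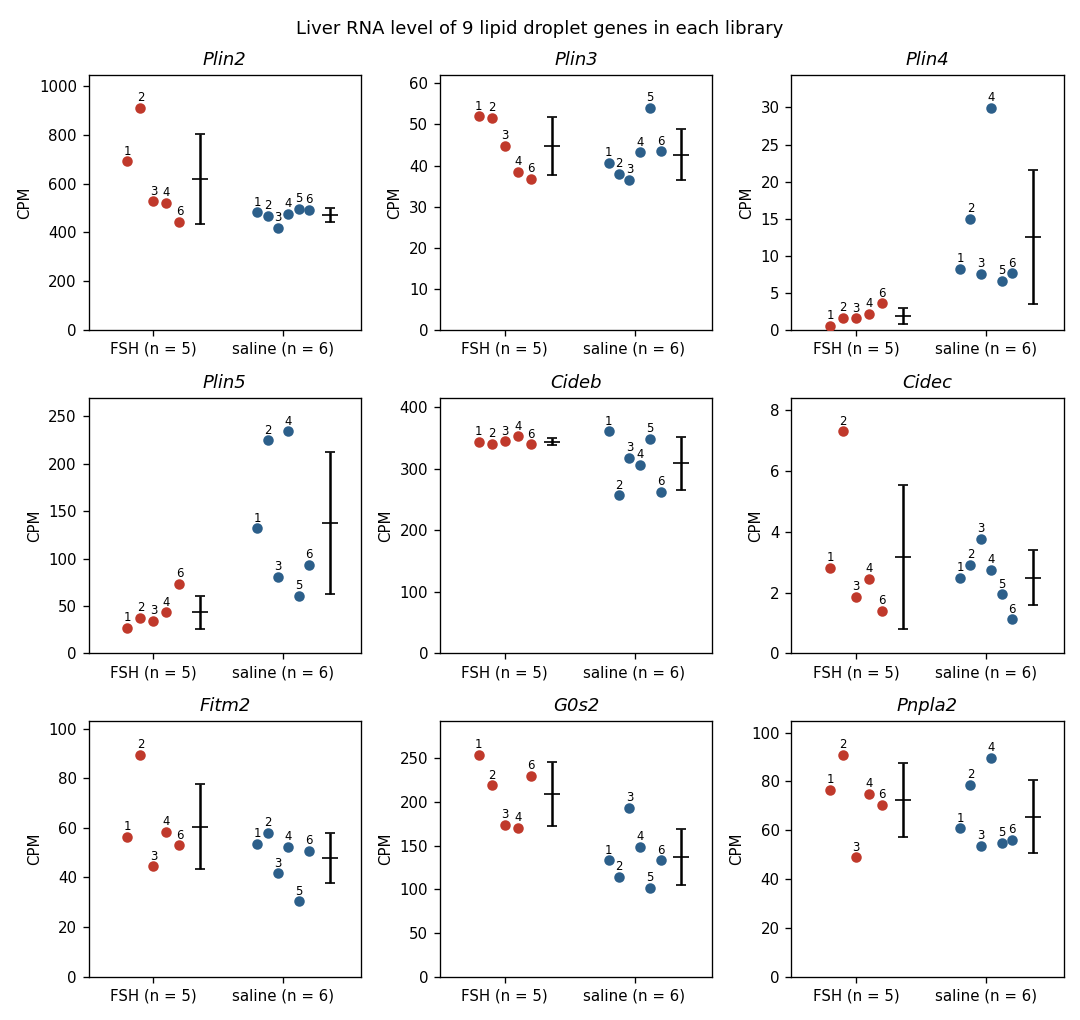
Level of 9 members in each library, in CPM on a linear axis that starts at 0, with the libraries' numbers beside the points; the black mark and bar beside each group give the mean and SD (FSH, n = 5; saline, n = 6). The groups are separate for Plin4 only, for Plin5 they meet in 1 library of each group, and for G0s2 saline library 3 lies above FSH libraries 3 and 4.

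Among the perilipins, Plin4 showed the largest difference. Plin4 encodes the longest perilipin, best known from fat and muscle, and lies on chr17:56100591-56109803 on the minus strand. FSH libraries 1, 2, 3, 4 and 6 had 0.603, 1.70, 1.59, 2.20 and 3.59 CPM of Plin4, and the saline libraries had 6.67 CPM at the lowest, 7.93 at the median and 29.9 at the highest. Every FSH library was below every saline library, and such a lack of overlap was found for 6.67% of all tested genes. The means were 1.93 ± 1.09 CPM in FSH livers (SD, n = 5) and 12.5 ± 9.04 CPM in saline livers (SD, n = 6), a 6.46-fold difference. In limma's fit the log2 fold change of Plin4 was -2.32 (standard error 0.37, 95% interval -3.11 to -1.53, adjusted p = 0.00124), and the exact two-sided permutation test over all 462 splits gave p = 0.00216, the smallest it can give. Between 12 and 41 reads lay behind the Plin4 values of the FSH libraries and at least 72 behind those of the saline libraries. A test on the reads, edgeR's quasi-likelihood test, gave -2.80 (adjusted p = 0.00206). The last 17 bases of Plin4 are shared with an exon of Hdgfl2 on the other strand, and Hdgfl2 itself had 20.2 CPM with FSH and 24.4 CPM with saline (limma adjusted p = 0.10).

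Plin5, the perilipin of tissues that burn fatty acids, which holds droplets close to mitochondria and binds both ATGL and Abhd5, fell as well. It lies on chr17:56111601-56117596, also on the minus strand, 1797 bases upstream of Plin4. FSH libraries 1, 2, 3, 4 and 6 had 27.2, 37.8, 34.1, 43.4 and 73.1 CPM of Plin5, and the saline libraries had 61.0 CPM at the lowest, 112.6 at the median and 234.3 at the highest. The groups met in FSH library 6 and saline library 5 only. The mean was 43.1 ± 17.8 CPM in FSH livers (SD, n = 5) and 137.6 ± 74.9 CPM in saline livers (SD, n = 6), which is 3.19-fold lower with FSH. Its log2 fold change was -1.57 (standard error 0.33, 95% interval -2.27 to -0.86, limma adjusted p = 0.00747; exact two-sided permutation p = 0.00866).

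Plin4 and Plin5 ranked the libraries alike. Within the FSH group, all 5 libraries held the same rank for both genes, from library 1 at the lowest to library 6 at the highest, and within the saline group all 6 did, from library 5 to library 4. Some Plin4 ranks rest on close values, which counting error alone could exchange. FSH libraries 2 and 3 had 1.70 and 1.59 CPM (23 and 28 reads), and saline libraries 3 and 6 had 7.61 and 7.65 CPM (87 and 123 reads). With the group means removed, the log2 levels of the pair correlated with r = 0.89 over the 11 libraries (Spearman's rho 0.91), and with r = 0.82 without the 2 libraries farthest from the median. The ratio was not fixed, however. Per kilobase of exon, Plin4 stood at 0.00801 to 0.0183 of Plin5 in the FSH libraries and at 0.0225 to 0.0461 in the saline libraries, since Plin4 differed more than Plin5. These points share the libraries and their depth, and the correlations are given as descriptions.

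**Figure D2:**
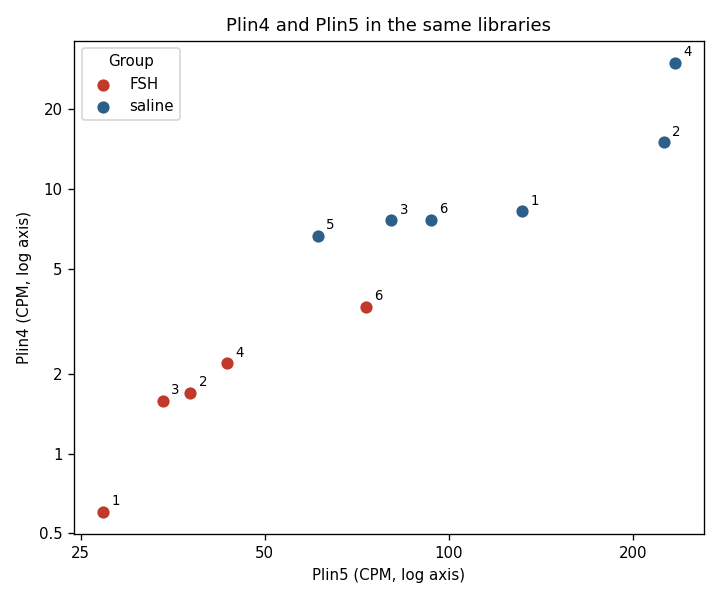
Plin4 against Plin5 in each of the 11 libraries, both in CPM on log axes, with the libraries' numbers beside the points. Within each group the libraries stand in the same order on both axes, from 27.2 CPM of Plin5 in FSH library 1 to 234.3 CPM in saline library 4.

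The genes around Plin4 and Plin5 were examined in the same fit. Of the 23 protein-coding genes of the table that lie at least in part within 200 kb of the start of Plin5, a window that was set after values had been seen, 19 were tested, 6 were called lower, 0 were called higher and 13 were not called. The window was centered on Plin5 with its call and that of Plin4 known, and without this pair 4 of 17 tested genes were called lower, beside 4.41% over all tested genes. The 6 lower genes were Plin4, Plin5, Lrg1, Sema6b, Dpp9 and Ticam1, and the first 4 of these lie side by side. Lrg1, a secreted glycoprotein gene that starts 4.40 kb from the start of Plin5, had 291.5 ± 66.4 CPM in FSH livers (SD, n = 5) and 590.7 ± 178.8 CPM in saline livers (SD, n = 6), with a log2 difference of -0.99 (limma adjusted p = 0.00402). Sema6b, a semaphorin gene, differed by -0.69 on that scale (limma adjusted p = 0.0376). Dpp9, a dipeptidyl peptidase gene 101.3 kb away, was at 24.2 ± 4.45 CPM (SD, n = 5) and 57.2 ± 9.65 CPM (SD, n = 6), with no overlap between the groups and a log2 fold change of -1.23. Groups without overlap were found for 6.67% of all tested genes. Ticam1, an adaptor of Toll-like receptors, differed by -0.53 (limma adjusted p = 0.0363). On the far side of Plin4, Hdgfl2 and Ubxn6 had -0.26 and 0.15 (limma adjusted p = 0.10 and 0.43) and were not called. Dpp9 is named because it stood out in this window, not by the rule for neighbors.

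**Figure D3:**
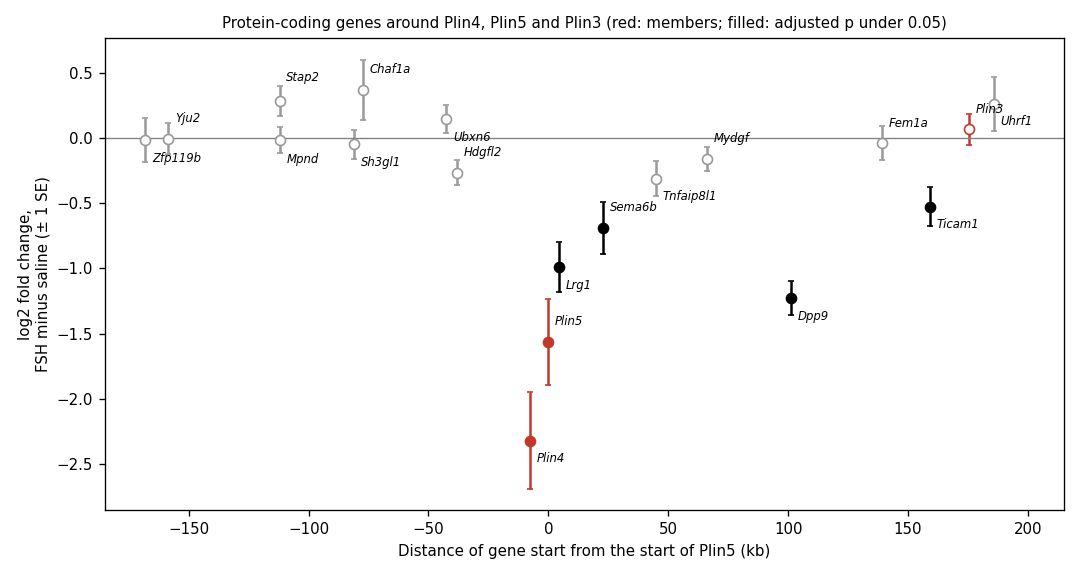
Log2 fold change (FSH minus saline, ± 1 SE) of the 19 tested protein-coding genes within 200 kb of Plin5, against the distance of each gene's start from that of Plin5 in kb. Plin4 (-2.32) and Plin5 (-1.57) are the lowest points, followed by Dpp9 (-1.23) and Lrg1 (-0.99), and Plin3 lies near 0.

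Plin3, a perilipin that is held in the cytosol and binds nascent droplets, is the third perilipin of that stretch, on chr17:56277476-56292873, 159879 bases from Plin5. FSH libraries 1, 2, 3, 4 and 6 had 51.9, 51.6, 44.7, 38.5 and 36.8 CPM, and the saline libraries had 36.5 CPM at the lowest, 41.9 at the median and 54.0 at the highest. The groups covered nearly the same range. The log2 fold change of Plin3 was 0.07 (standard error 0.12, 95% interval -0.19 to 0.32, limma adjusted p = 0.79), and it lay between 0.01 and 0.14 when each library was left out in turn.

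Plin2, also called adipophilin, is the perilipin found on droplets of most cells and the most abundant one in these livers, and lies on chr4:86648386-86670060. It reached 691, 909, 527, 520.1 and 445 CPM in FSH libraries 1, 2, 3, 4 and 6, against 419 CPM at the lowest, 479 at the median and 498 at the highest in the saline libraries. Of the 5 FSH libraries, 4 exceeded all saline libraries, and library 6 lay among them. The FSH libraries were also less alike, with a coefficient of variation of 30.03% against 5.99% in the saline group. FSH library 2 at 909 CPM and saline library 3 at 419 CPM weigh heavily in these values. The means of 618 ± 186 CPM (SD, n = 5) and 473 ± 28.3 CPM (SD, n = 6) gave a log2 fold change of 0.34 (standard error 0.15, 95% interval 0.03 to 0.65), which was not called (limma adjusted p = 0.16; exact two-sided permutation p = 0.0498, unadjusted). Single libraries decided the Plin2 value, which was 0.19 without FSH library 2 (limma adjusted p = 0.33) and passed the threshold with 0.45 without FSH library 6 (limma adjusted p = 0.0496).

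The make-up of the perilipin pool was described per library, with no test. To compare genes, levels were divided by the length of all annotated exons, and the 4 perilipins were set to 100% in each library. Plin2 made up 83.4% ± 6.11 (SD, n = 5) of the summed level with FSH and 64.4% ± 10.3 (SD, n = 6) with saline. Plin5 made up 10.6% ± 5.92 and 29.3% ± 11.1, respectively, and ranged from 5.83% to 20.4% in the FSH libraries and from 15.7% to 42.5% in the saline libraries. Plin3 held a like share in both, 5.75% ± 0.72 and 5.41% ± 1.32. Plin4 made up 0.175% ± 0.121 with FSH and 0.953% ± 0.513 with saline and was the smallest part in every library. The ranges of the groups met for Plin2, Plin3 and Plin5 and were apart for Plin4. Shares sum to a fixed total, so they are not independent of each other.

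**Figure D4:**
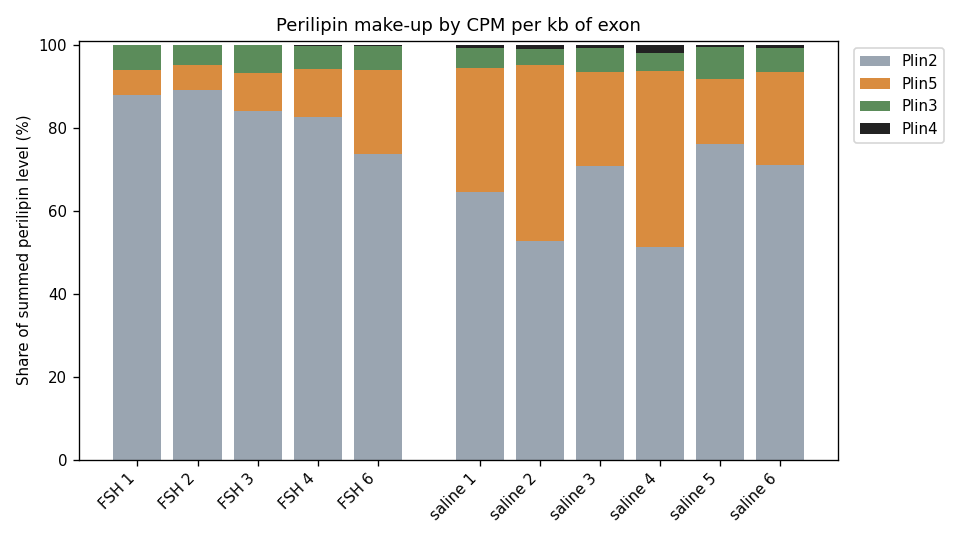
Share of each perilipin in the summed perilipin level (CPM per kb of exon, in percent) in each FSH and saline library. Plin2 takes 73.6% to 89.0% in the FSH libraries and 51.3% to 76.0% in the saline libraries, and Plin5 is the next largest part in 4 of the 5 FSH libraries and all 6 saline libraries.

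No CIDE gene was called. Cideb, the CIDE protein of hepatocytes, which also helps to load lipid onto very-low-density lipoprotein, lies on chr14:55754050-55758458. It had 344, 340.4, 345, 353 and 339.9 CPM in FSH libraries 1, 2, 3, 4 and 6, and 257 CPM at the lowest, 312 at the median and 361 at the highest in the saline libraries. The FSH libraries stood within a narrow band in the upper part of the saline range, with a coefficient of variation of 1.55% against 13.9%. Its log2 fold change was 0.17 (standard error 0.10, 95% interval -0.04 to 0.37, limma adjusted p = 0.30). Exons of Cideb share 1136 bases with Nop9 on the other strand, and whether the counting used strand is not given in the sources used here; Nop9 stood at 21.1 CPM in both groups.

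Cidec, also called FSP27, which makes the large droplets of fat cells and is found in steatotic livers, lies on chr6:113424634-113435760 and was low, with 16 to 99 reads per library. The FSH libraries had 2.81, 7.30, 1.87, 2.45 and 1.40 CPM, and the saline libraries had 1.12 CPM at the lowest, 2.61 at the median and 3.76 at the highest. FSH library 2 alone was above the saline range. Its log2 fold change was 0.17 (standard error 0.32, 95% interval -0.51 to 0.84, limma adjusted p = 0.80), and without FSH library 2 it was -0.15, without saline library 6 it was 0.00 and without FSH library 6 it was 0.35. Cidea, the CIDE protein best known from brown fat (chr18:67343604-67367785), had at most 1 read in any library, which is under the limit of 3 reads that a count of 0 allows (0.151 to 0.278 CPM, counting error only), so it was not detectable at this depth in either group.

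Fitm2, a protein of the endoplasmic reticulum that droplets need to bud from it, lies on chr2:163466379-163472629. FSH libraries 1, 2, 3, 4 and 6 had 56.5, 89.6, 44.5, 58.5 and 53.0 CPM, and the saline libraries had 30.4 CPM at the lowest, 51.5 at the median and 58.1 at the highest. Apart from FSH library 2 the groups covered much the same values. For Fitm2 the fitted difference was 0.33 (standard error 0.18, 95% interval -0.06 to 0.71, limma adjusted p = 0.28), which was 0.17 without FSH library 2 and 0.20 without saline library 5. It shares 227 exonic bases with an antisense gene, 2310001K24Rik.

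Of the lipase and its inhibitor, the inhibitor rose. G0s2, on chr1:193272161-193273217 inside an intron of Lamb3 on the other strand, had 254, 219, 173, 171 and 230.1 CPM in FSH libraries 1, 2, 3, 4 and 6, and 102 CPM at the lowest, 133 at the median and 193 at the highest in the saline libraries. Only saline library 3 reached into the FSH range, above FSH libraries 3 and 4. The means were 209.5 ± 36.6 CPM (SD, n = 5) and 137.4 ± 32.0 CPM (SD, n = 6), a 1.53-fold difference and a log2 fold change of 0.62 (standard error 0.15, 95% interval 0.30 to 0.94, limma adjusted p = 0.0173; exact two-sided permutation p = 0.013). Without FSH library 1, the call was lost (0.55, limma adjusted p = 0.0573). A fit with a block by replicate number, given at the end, lost it as well. Lamb3 stood at 3.26 and 3.35 CPM (limma adjusted p = 0.97).

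Pnpla2 itself, on chr7:141455198-141460743, had 76.4, 91.0, 48.8, 74.8 and 70.3 CPM in FSH libraries 1, 2, 3, 4 and 6, and 53.7 CPM at the lowest, 58.3 at the median and 89.6 at the highest in the saline libraries. The ranges overlapped almost entirely. The log2 fold change of Pnpla2 was 0.14 (standard error 0.16, 95% interval -0.21 to 0.49, limma adjusted p = 0.65). It ranged from 0.05 without FSH library 2 to 0.27 without FSH library 3, and was 0.09 and 0.23 without saline libraries 3 and 4. Per kilobase of exon, G0s2 stood at a median of 11.4 times Pnpla2 in the FSH libraries (range 7.91 to 12.3) and 7.02 times in the saline libraries (range 5.02 to 12.5), and these ranges overlapped. Plin5 stood at 0.514 to 1.505 times Pnpla2 with FSH and at 1.61 to 4.13 times with saline. The groups did not overlap in that ratio, but FSH library 6 (1.505) and saline library 5 (1.61) lay close together. Relative to Plin2, Plin5 stood at 0.0662 to 0.277 with FSH and at 0.206 to 0.828 with saline, which overlapped. How often ratios of other genes separate the groups was not examined. With group means removed, G0s2 and Pnpla2 levels had r = 0.16 over the 11 libraries (rho 0.21; r = 0.36 without the 2 farthest libraries).

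**Figure D5:**
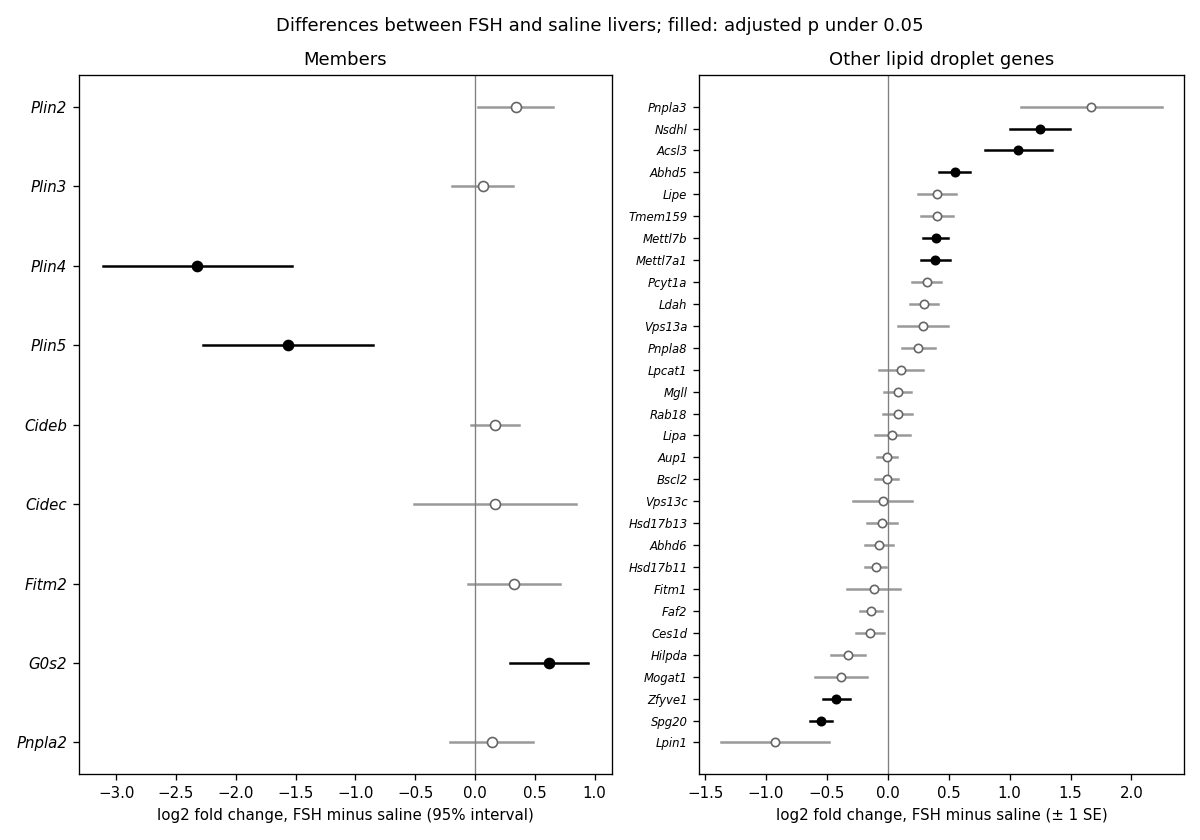
Log2 fold changes (FSH minus saline, on the log2(CPM + 0.5) scale) of the 9 tested members with 95% intervals (left) and of the 30 other tested lipid droplet genes with ± 1 SE (right), filled where the limma adjusted p was under 0.05. Plin4 and Plin5 are the only filled members left of 0, and Pnpla3 has the highest value but a wide error.

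Ordered by level per kilobase of exon, G0s2 and Cideb led in the FSH livers with 240.5 ± 42.0 and 231.5 ± 3.59 CPM per kb (SD, n = 5), a difference smaller than the larger SD. Plin2 followed with 176 ± 52.9, then Pnpla2 with 23.9 ± 5.05, Plin5 with 20.7 ± 8.51, Fitm2 with 15.2 ± 4.33 and Plin3 with 11.8 ± 1.87, and each of these last 4 was within the larger SD of its neighbor. In the saline livers the order was Cideb with 208 ± 28.9, G0s2 with 158 ± 36.7 and Plin2 with 135 ± 8.07 CPM per kb (SD, n = 6), followed by Plin5 with 65.9 ± 35.9 and then Pnpla2 with 21.7 ± 4.96, Fitm2 with 12.0 ± 2.55 and Plin3 with 11.3 ± 1.64. There G0s2 and Plin2 did not differ beyond the larger SD, nor did Fitm2 and Plin3. Plin5 thus stood above Pnpla2 in all 6 saline libraries. Cidec and Plin4 came last in both orders, from which Cidea, under the limit of detection, was left out, with Plin4 below Cidec in the FSH livers (0.335 ± 0.189 and 1.71 ± 1.28) and the 2 within their spread in the saline livers (2.16 ± 1.57 and 1.34 ± 0.484).

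Members outside the Plin4 and Plin5 pair varied together less closely. With group means removed, Plin2 and Plin3 correlated with r = 0.74 over the 11 libraries (rho 0.87; r = 0.72 without the 2 farthest libraries), and Fitm2 and Pnpla2 with r = 0.73 (rho 0.75; r = 0.72). Plin5 and Pnpla2 had r = 0.60, which dropped to 0.29 without the 2 farthest libraries. Plin2 and Cidec had r = 0.66 and a rho of 0.29, and r was -0.14 without them, so that relation rests on those libraries. Over all tested genes, those most like Plin4 by the same measure were Zfp384, Zbtb17 and Pxmp4 (r = 0.93, 0.92 and 0.92), of which Pxmp4, a peroxisomal membrane protein gene, was lower with FSH (log2 fold change -0.56, limma adjusted p = 0.00156). Most like Plin5 were Zxdc, Kcnk5 and Cdkn1a (r = 0.96 each). Cdkn1a, the cell cycle inhibitor p21, fell by 4.09 on the log2 scale (limma adjusted p = 1.78e-05), while Zxdc and Kcnk5 did not pass (-0.16 and 0.03). For G0s2 the nearest genes were Wwox, Snap47 and Anapc7 (r = 0.84, 0.82 and 0.82), and none of these was called. Without the 2 farthest libraries these r were 0.56, 0.52 and 0.68, so that the likeness to G0s2 rests in part on those libraries. For the genes named for Plin4 and Plin5, r stayed at 0.80 or above. All of these genes were chosen for the highest r among the tested genes over the same 11 libraries, so high values come with the choice. Leaving out 2 of those libraries is no independent check, and the r that chance would give was not examined.

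Of 31 other lipid droplet genes, 30 were tested, 5 rose and 2 fell, with a median log2 fold change of 0.06. Over all tested genes, 6.19% were called higher and 4.41% lower. Among the 11 tested genes of lipolysis and its control, 1 was called. Abhd5, the activator of ATGL, had 34.4 ± 7.36 CPM in FSH livers (SD, n = 5) and 23.0 ± 2.00 CPM in saline livers (SD, n = 6), with a log2 difference of 0.55 (limma adjusted p = 0.0122). Thus the activator and the inhibitor of ATGL were both higher, by 0.55 and 0.62, while Pnpla2 was not called. Pnpla3, a relative of ATGL, had 1.67 and did not pass (limma adjusted p = 0.0794), nor did Lipe, hormone-sensitive lipase, with 0.40 (limma adjusted p = 0.125) and Hilpda, another ATGL inhibitor, with -0.32 (limma adjusted p = 0.15). Of the 7 genes of droplet formation, Acsl3, an acyl-CoA synthetase that marks nascent droplets, was called, with 68.1 ± 17.6 CPM against 33.2 ± 10.8 CPM and a log2 difference of 1.07 (limma adjusted p = 0.0210).

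Of the 12 droplet surface genes, 5 were called, where the share over all tested genes was 10.6%. Nsdhl, a sterol synthesis enzyme that can sit on droplets, had 117 ± 34.7 CPM in FSH livers (SD, n = 5) and 49.5 ± 17.9 CPM in saline livers (SD, n = 6), with a log2 difference of 1.25 (limma adjusted p = 0.00442). Mettl7a1 and Mettl7b, methyltransferase-like droplet proteins, each rose by 0.39 (limma adjusted p = 0.0442 and 0.0223), and Mettl7a1 lost its call in 12 of 22 alternatives (adjusted p up to 0.0996). Spg20, which encodes spartin, had 24.7 ± 1.85 CPM against 36.4 ± 3.63 CPM and a log2 difference of -0.55 (limma adjusted p = 0.00139). Every FSH library was below every saline library for Spg20 and above every saline library for Mettl7a1 and Mettl7b. Such a lack of overlap was found for 6.67% of all tested genes. Zfyve1, also called DFCP1, had -0.42 (limma adjusted p = 0.0237). Without FSH library 1, and likewise without FSH library 3, 4 of the 30 other droplet genes were called. Of the genes besides Mettl7a1, Mettl7b and Zfyve1 each lost their call in 3 of 22 alternatives, Acsl3 in 2, and Abhd5, Nsdhl and Spg20 in 0.

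Of 10 transcription factors and coactivators known to act on genes of lipid storage, 1 was called, a share near the 10.6% of all tested genes. Srebf1, which drives fatty acid synthesis genes, had 446 ± 29.7 CPM in FSH livers (SD, n = 5) and 223 ± 86.5 CPM in saline livers (SD, n = 6), with all FSH libraries above all saline libraries (log2 fold change 1.09, limma adjusted p = 0.00474). A lack of overlap in either direction was found for 6.67% of all tested genes. Ppara and Pparg, nuclear receptors known to act on perilipin genes, had 0.01 and 0.29 (limma adjusted p = 0.98 and 0.42).

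Markers of other cells were read in the same libraries. The 6 hepatocyte markers summed to 90113 to 109291 CPM with FSH and 83731 to 110934 CPM with saline, and 1 of them, Hnf4a, was lower (-0.44, limma adjusted p = 0.0369). Of the 7 adipocyte markers, 5 had at most 3 reads in every library, among them Adipoq, Lep and Plin1, and the sum of 4.21 to 8.85 CPM with FSH and 8.70 to 14.9 CPM with saline was nearly all Fabp4, which other liver cells also express and which was lower (-0.64, limma adjusted p = 0.0342). The 4 skeletal muscle markers had at most 3 reads in every library, and of the 3 brown fat markers Ucp1 had 0 and Cox8b at most 2. The third, Cox7a1, had 4.62 CPM with FSH and 2.85 CPM with saline and was not called (0.61, limma adjusted p = 0.0591). The 4 Kupffer cell markers summed to 65.1 to 170.4 CPM with FSH and 105.9 to 210.8 CPM with saline, with negative log2 fold changes for all 4 (median -0.54), of which Cd68 was called (-0.78, limma adjusted p = 0.0118) and Clec4f (-0.67, limma adjusted p = 0.0818), Vsig4 and Adgre1 were not. The 4 stellate and 3 endothelial markers also had negative values throughout (medians -0.27 and -0.22), and none of the stellate, endothelial, erythroid or pancreatic acinar markers was called. Of 6 clock genes, 3 were lower and 3 higher with FSH, among them Arntl (-2.33) and Dbp (4.02), beside 4.41% called lower and 6.19% called higher over all tested genes, and these 6 were chosen because they were known to differ in these data. The hours of collection and the fed state are not given in the sources used here, and the part of these differences in the members' values was not tested.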

How the data were processed

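Liver RNA libraries (NEBNext Ultra) were sequenced paired-end on an Illumina HiSeq instrument. The submitters' processing notes name FastQC 0.11.2, cutadapt, Trim Galore 0.3.3, STAR, RSEM and mm10, and the use of strand is not given in the sources used here. The authors deposited CPM values that sum to 1000000 per library, from which whole reads were recovered for 100% of the values (within 0.1 read). Names and positions came from GENCODE M21 (GRCm38), and 35555 identifiers were named. The 12733 genes whose mean reached 0.5 CPM were compared on the log2(CPM + 0.5) scale by limma (version 3.58.1, R version 4.3.3; trend, Benjamini-Hochberg), without a block. Single genes had an exact permutation test over 462 splits. edgeR 4.0.16 and DESeq2 1.42.0 on the recovered reads, other pseudocounts, filters and scalings, a replicate block and leaving out each library were alternatives. No pair of libraries within a group was alike within sampling noise (lowest mean chi-square per gene 11.4). The functions were tested on simulated data with the same dispersion for every gene, which says little about genes as variable as Plin4 and Plin5. Exon lengths are unions over annotated transcripts. Named were all members, every other droplet gene or regulator past the adjusted p with some that were not, 2 neighbors on each side, and the 3 genes most like each called member. Members, lists and the window around Plin5 were chosen with earlier results of these data known.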

Additional observations from a re-analysis of the deposited data

Results flagged for a closer look

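Plin2 in saline library 3 had 419 CPM, apart from the other saline libraries at 469 to 498 CPM. Its gap to the nearest of them was 0.648 of the group's range on the log2(CPM + 0.5) scale and 0.628 on the CPM scale, both above Dixon's 95% critical value for 6 samples. On the CPM scale alone, Plin4 in saline library 4 (29.9 CPM, the others 6.67 to 15.0; 0.642 of the range) and Cidec in FSH library 2 (7.30 CPM, the others 1.40 to 2.81; 0.761 of the range) were set apart as well. On each scale 18 groups of values were tested, and chance sets apart about 1 group in 20. Plin4 was called in 11 of 11 fits that each left out one library.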

How the results depend on the processing

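Plin4 was called in 22 of 22 alternatives, with log2 fold changes from -2.80 to -2.03 and adjusted p-values from 1.65e-05 to 0.0046, and Plin5 in 22 of 22, from -1.77 to -1.38 (adjusted p 0.00125 to 0.027). G0s2 was called in 20 of 22 (0.54 to 0.72, adjusted p 0.00433 to 0.061). The number of called members was 2 to 4 when each library was left out in turn, the number of called genes 803 (without FSH library 1) to 1659, and that of the other droplet genes 4 to 8. Cidec ranged from -0.15 to 0.35 in those fits and was below 0 only without FSH library 2. With the fold-change threshold added, 233 genes and 2 of the other droplet genes were called. Counted over members, all genes and other droplet genes, no other alternative moved a count by over 1.5 times.

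The labels do not say that a replicate number is shared between the groups, and a check of 5 pairs cannot exclude it. Of the 5 pairs that share a number, 2 correlated above 0.1 in their deviations from the group means, and 2 of 10 libraries correlated best with their own number. With the replicate block, which leaves saline library 5 without a partner, 1210 genes were called and G0s2 had 0.54 (adjusted p = 0.061). Plin4 in the FSH libraries (12 to 41 reads), Cidec (16 to 99 reads) and Cidea (at most 1 read) rest on few reads.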
